A study of Homo sapiens with 16 samples.

Results

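A set of 9 genes of haem breakdown and iron handling, listed by symbol and matched to Ensembl IDs, was followed through all libraries of a melanoma time course. They were HMOX1 and HMOX2 (haem oxygenases), BLVRA and BLVRB (biliverdin reductases), FTH1 and FTL (ferritin subunits), TFRC (transferrin receptor), SLC40A1 (ferroportin) and SLC11A2 (DMT1). These are 9 of the 63677 gene IDs in the count files and 9 of the 20280 genes that passed the filter on low counts. The set was chosen by function with earlier results of these data known. It was selected on the CPM of HMOX1 at 6 h in UACC62P, which was known to be high. The values of HMOX1 in treated UACC62P cells are therefore given as a description without a p.

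The tested cells were UACC62R, a vemurafenib-resistant derivative of the human melanoma line UACC62P that had been selected for 2 months in 2 uM vemurafenib, a BRAF inhibitor, and cultured in it continuously. UACC62P is the parental line, and no vemurafenib is named for it. Each line was sequenced untreated (0 h) and after 2, 6 and 24 h in 10 uM CCG-222740, which is known as an inhibitor of MRTF/SRF-dependent transcription, with 2 libraries in each of 8 groups. The labels do not say whether the 2 libraries of a group came from separate cultures, so the p-values measure the spread between these libraries, which may be technical. The treatment note mentions a vehicle, but the 0 h libraries are marked as having had no treatment. The untreated and the treated libraries are titled in different forms and carry different growth notes: that of the untreated ones gives the vemurafenib culture, while that of the treated ones gives seeding into plates and does not mention vemurafenib. The labels do not say whether the untreated and treated cells were grown or sequenced together. In every comparison with 0 h, the compound and any such difference therefore cannot be told apart. The comparison of 24 h with 6 h holds treated libraries alone. No vehicle library stands beside those times. Time in the compound therefore cannot be told apart there from time since seeding or, in UACC62R, any time without vemurafenib. UACC62R is 1 derived line, so differences from UACC62P are differences between 2 cultures.

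Depth was 25.9 to 33.3 M reads in genes per library. The library labelled UACC62P 2 h replicate 1 stood apart from its group: of the 9 genes, 5 lay nearest to a UACC62R group there and 4 nearest to a UACC62P group. It was left out of the tests below, so UACC62P at 2 h is 1 library, and its own values are given beside the others. Its CPM were scaled in a run of all 16 libraries and those of the other 15 in a run without it. Narrow gaps between it and the others are therefore uncertain. The 8 listed melanocyte genes summed to 73.8 to 84.5 CPM in UACC62R and to 1497 to 1848 CPM in UACC62P (7 libraries), so the resistant line had little of the lineage signal. The 6 blood and macrophage markers summed to 9.44 to 12.3 CPM in UACC62R, with HBB at 0, and to 0.867 to 1.77 CPM in UACC62P, with HBB and CD163 at 0. Of these 6, 1 was above 1 CPM in all UACC62R libraries and 0 in all UACC62P libraries. By the test below, CSF1R was higher in untreated UACC62R than in untreated UACC62P and HBA1 lower. The 3 fibroblast markers summed to 45.8 to 68.4 CPM in UACC62R and to 25.9 to 31.3 CPM in UACC62P, with LUM higher in untreated UACC62R by the test and PDGFRA lower. The 3 endothelial markers summed to 0.0313 to 0.449 CPM in UACC62R and to 2.53 to 3.89 CPM in UACC62P, with PECAM1 at 0 in both. Only 1 of these 3, KDR, was tested, and it was lower in untreated UACC62R. The 4 epithelial markers summed to at most 0.305 CPM in any of these 15 libraries, with CDH1 at 0.

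Haem oxygenase opens the haem ring and releases iron, carbon monoxide and biliverdin, and biliverdin reductase turns biliverdin into bilirubin. HMOX1 is the inducible oxygenase, held down by BACH1 and switched on by NRF2, heat shock factors, haem and metals, while HMOX2 is the constitutive one. The freed iron is stored in ferritin shells of H and L chains or leaves the cell through ferroportin. Iron regulatory proteins bind a hairpin called the iron-responsive element in several of these mRNAs when iron is scarce, which blocks translation when the hairpin is in the 5′ UTR and protects the mRNA from decay in the 3′ UTR of TFRC. Some transcripts of SLC11A2 are also known to carry a 3′ UTR element.

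The hairpins are shown because a 5′ UTR element acts mainly on translation, which RNA counts do not measure, while those of TFRC act on decay of the mRNA. Each is 29 bases from GENCODE v29 transcripts (GRCh38), 5′ to 3′ and written as DNA, with the 6-base loop in capitals. The pattern searched was a C, 5 stem bases, the loop (CAGTG and then A, C or T) and 5 bases pairing with the stem, G-T pairs allowed, and the printed run holds 6 more bases on either side.
FTL 5′ UTR: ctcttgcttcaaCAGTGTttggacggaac
SLC40A1 5′ UTR: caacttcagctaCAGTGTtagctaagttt
TFRC 3′ UTR, element 1: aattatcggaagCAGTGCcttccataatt
TFRC 3′ UTR, element 2: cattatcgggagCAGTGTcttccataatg
TFRC 3′ UTR, element 3: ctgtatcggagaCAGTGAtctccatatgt
TFRC 3′ UTR, element 4: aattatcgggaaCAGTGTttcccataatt
By this pattern FTL has the element in its 1 coding transcript, TFRC has 4 elements in 3 of 4 coding transcripts, and SLC40A1 has 1 in 1 of 5. FTH1 has 1 element in 7 of 8 coding transcripts. These counts hold only elements that match the pattern, so a gene may carry others. No stretch of HMOX1, HMOX2, BLVRA, BLVRB or SLC11A2 matched the pattern, which 1.09% of protein-coding genes hold (214 of 19684), and the absence of a match says only that these letters were not found. A match is a description of the letters, and the gene counts used here do not separate transcripts.

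HMOX1 moved most of the 9 genes at 2 and 6 h in the compound. In UACC62R it stood at 115 and 102 CPM (read counts scaled to a common library size by TMM, replicates 1 and 2) at 0 h, 439 and 354 CPM at 2 h, 389.9 and 405 CPM at 6 h, and 195 and 153 CPM at 24 h. Every treated UACC62R library lay above both untreated ones, and the 24 h libraries lay below those of 2 h and 6 h. In bulk RNA, more cells with a transcript and more transcript per cell cannot be told apart. In UACC62P it stood at 35.3 and 42.9 CPM at 0 h, 197 CPM at 2 h (replicate 2), 128 and 761 CPM at 6 h, and 50.2 and 83.2 CPM at 24 h. Here too every treated library lay above both untreated ones, but the pair at 6 h was far apart.

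**Figure D1:**
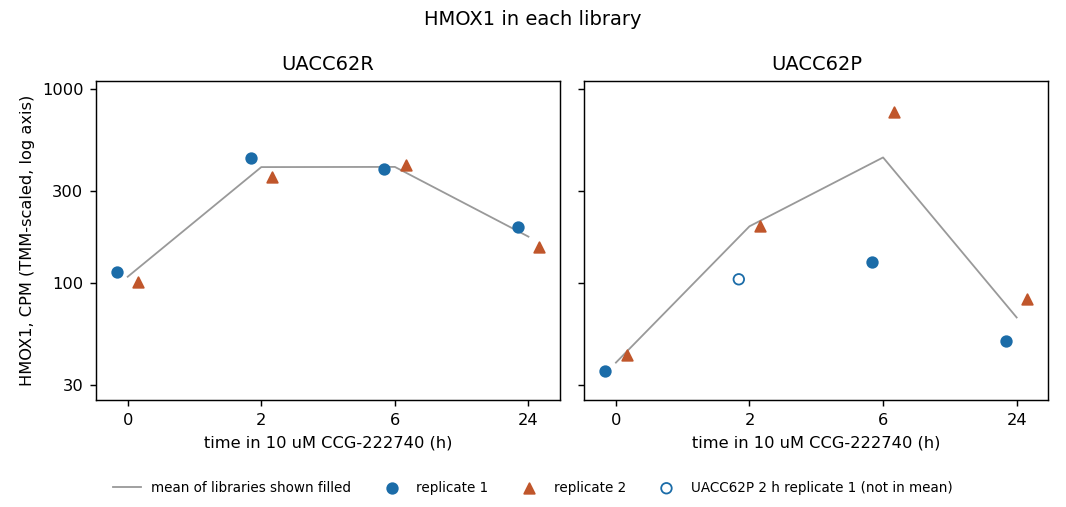
HMOX1 level (CPM, log axis) against time in CCG-222740 in UACC62R (left) and UACC62P (right), with 1 point per library, a line through the group means and an open circle for the UACC62P 2 h library left out of the tests. The 2 UACC62R libraries of each time lie close together, while the UACC62P libraries at 6 h are at 128 and 761 CPM.

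Taken replicate by replicate, each treated library over the untreated library of the same number, HMOX1 in UACC62R was 3.83-fold and 3.48-fold at 2 h, 3.40-fold and 3.99-fold at 6 h, and 1.70-fold and 1.51-fold at 24 h. In UACC62P the ratio was 4.58-fold in replicate 2 at 2 h. It was 3.64-fold in replicate 1 and 17.7-fold in replicate 2 at 6 h, and 1.43-fold and 1.94-fold at 24 h. The first replicate of UACC62P at 6 h therefore showed a ratio between those of the UACC62R libraries at 6 h, and the second a ratio several times higher.

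Between the UACC62P libraries at 6 h, HMOX1 differed by 2.56 on the log2 scale (replicate 2 minus replicate 1), the widest gap among 11567 genes whose mean log2 CPM reached 2. Of those genes, 85.6% differed by less than 0.25, and 14 by more than 1. HSPA1B and HSPA1A, near-identical HSP70 chaperone genes whose reads cannot be divided with certainty, came next among the named genes higher in replicate 2: HSPA1B had 52.8 CPM in replicate 1 and 156 CPM in replicate 2, and HSPA1A had 73.5 CPM and 190.0 CPM. EIF3CL, a translation factor gene with a near-identical copy, had 59.7 CPM in replicate 1 and 136 CPM in replicate 2. DNAJB9, an endoplasmic reticulum chaperone, had 28.7 CPM in replicate 1 and 55.9 CPM in replicate 2. The remaining genes of the 6 so ranked were RAB20 and FICD. At 24 h in UACC62P the HMOX1 pair differed by 0.72 in the same direction, rank 39 of the 11567 genes, and in UACC62R the gap ranked no higher than 1220 at any time.

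**Figure D2:**
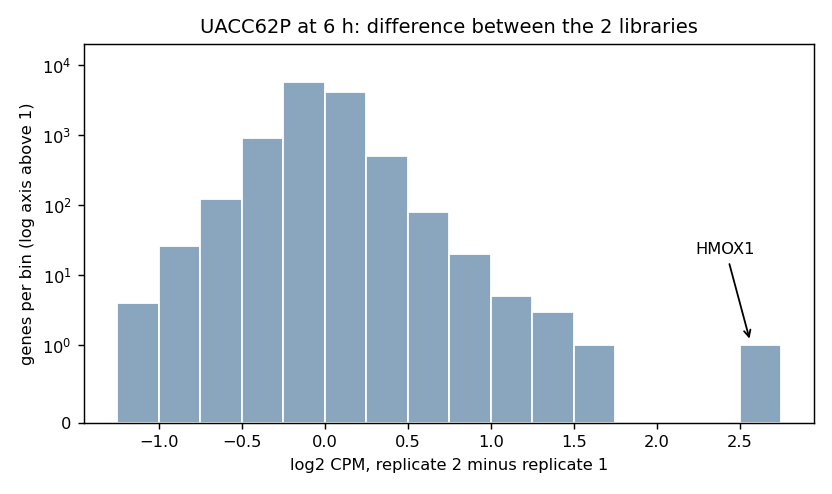
Difference between the UACC62P libraries at 6 h (log2 CPM, replicate 2 minus replicate 1) for 11567 genes in bins of 0.25, with the number of genes per bin on a vertical axis that is logarithmic above 1. HMOX1, at 2.56, is the single gene in the bin farthest to the right.

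That pair decided how the fit across all genes read HMOX1, because the fit estimates 1 spread per gene from all 15 libraries. The log2 fold change in UACC62R was 1.87 ± 0.51 (SE) at 2 h (n = 2 libraries each, edgeR adjusted p = 0.700), 1.88 ± 0.51 at 6 h (adjusted p = 0.157) and 0.68 ± 0.50 at 24 h (adjusted p = 0.420), so none passed 0.05. With the UACC62P 6 h replicate 1 left out, the same 3 changes had adjusted p-values of 0.000944, 0.000371 and 0.0313. With replicate 2 left out in its place, they were 0.000913, 0.00036 and 0.0311. With replicate number as a block, the 6 h change in UACC62R also passed (1.87 ± 0.43, adjusted p = 0.0224), the 2 h change missed (1.89 ± 0.43, adjusted p = 0.0828), and the 24 h change did not pass. In UACC62P the log2 fold change was 2.33 ± 0.60 at 2 h, 3.51 ± 0.55 at 6 h and 0.77 ± 0.52 at 24 h. The 6 h value was 4.28 without replicate 1 and 1.72 without replicate 2.

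Whether the lines differed in their HMOX1 response could not be settled with these libraries. The response in UACC62R minus that in UACC62P was −0.46 ± 0.79 on the log2 scale at 2 h, −1.63 ± 0.72 at 6 h and −0.09 ± 0.72 at 24 h, given without a p because it rests on treated UACC62P cells. At 6 h the difference was −2.41 without the UACC62P 6 h replicate 1, and 0.16 without replicate 2. Over all genes, the adjusted p for a difference of response passed 0.05 in 0.0% of genes at 2 h, 0.00493% at 6 h and 0.562% at 24 h. None of the other 8 genes was among them.

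The 6 genes whose pattern over the 15 libraries was most like HMOX1, each library taken relative to the untreated mean of its line, were ZNF384 (Pearson r = 0.916), BAG3 (0.914), AKAP7 (0.903), MT1X (0.895), HSPA1A (0.895) and HSPA1B (0.894). Over the 10603 genes compared, the median r was 0.0 and the 95th percentile was 0.517. The libraries share the time course and the untreated means, so r describes a pattern and carries no p. BAG3 is a cochaperone of HSP70 and MT1X a metallothionein, a small protein that holds metal ions. Without the UACC62P 6 h replicate 2 the 6 values lay between 0.868 and 0.923. None of the other 8 haem and iron genes came near: SLC11A2 reached 0.365 and TFRC 0.309, and the rest lay between −0.139 and 0.128.

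The constitutive oxygenase did not share this course. HMOX2 in UACC62R stood at 65.2 and 64.8 CPM at 0 h, 63.0 and 66.2 CPM at 2 h, 65.5 and 64.1 CPM at 6 h, and 59.1 and 55.1 CPM at 24 h. In UACC62P it stood at 107 and 104 CPM at 0 h, 112 CPM at 2 h, 97.6 and 93.8 CPM at 6 h, and 94.9 and 93.4 CPM at 24 h. The 24 h libraries were the lowest of UACC62R, and in UACC62P those of 6 and 24 h lay below the earlier ones. The log2 fold change at 24 h was −0.19 ± 0.07 in UACC62R (adjusted p = 0.0940) and −0.17 ± 0.07 in UACC62P (adjusted p = 0.210), and with replicate number as a block the first passed (adjusted p = 0.0349) and the second did not (adjusted p = 0.0820). HMOX2 exons overlap those of NMRAL1 on the opposite strand over 228 bases in GENCODE v29, and whether reads were counted by strand is not stated in those sources that were used.

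Of the biliverdin reductases, BLVRB (also called flavin reductase) rose in UACC62R and BLVRA did not pass the test. BLVRB in UACC62R had 92.2 and 85.8 CPM at 24 h, against 71.8 and 63.1 CPM at 0 h. The 24 h libraries lay above all earlier ones of that line, although one 6 h library had 85.1 CPM. The change was 0.40 ± 0.09 on the log2 scale (adjusted p = 0.00966), or 1.28-fold and 1.36-fold replicate by replicate. It missed the threshold without the UACC62R 0 h replicate 2 (adjusted p = 0.127), without 24 h replicate 1 (0.11) and with all 16 libraries (0.301). In UACC62P BLVRB had 61.2 and 64.3 CPM at 24 h, against 54.0 and 55.4 CPM at 0 h, a change of 0.20 ± 0.09 that did not pass (adjusted p = 0.279). All 9 genes lay apart from their untreated libraries in UACC62P at 24 h, 5 higher and 4 lower. With 2 libraries a group, such a gap alone therefore says little. The share of all genes with such a gap from 0 h is not given. BLVRA spanned 59.8 to 72.2 CPM in UACC62R and 67.9 to 75.0 CPM in UACC62P, so the lines overlapped. Its log2 fold change at 24 h was 0.14 ± 0.10 in UACC62R and −0.09 ± 0.10 in UACC62P.

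Ferritin rose late in UACC62R. FTH1, the heavy chain, which oxidises iron for storage, stood at 779.7 and 658 CPM at 0 h, 913 and 911 CPM at 2 h, 876 and 571 CPM at 6 h, and 1419 and 1273 CPM at 24 h in UACC62R. Both 24 h libraries lay well above the 6 earlier ones, while the 6 h pair spanned the untreated libraries. FTL, the light chain, had 2659 and 2214 CPM at 0 h, 2984 and 2512 CPM at 2 h, 2815 and 2230 CPM at 6 h, and 3611 and 3290 CPM at 24 h, and again both 24 h libraries were the highest of the line. The 24 h changes were 0.91 ± 0.18 on the log2 scale for FTH1 (adjusted p = 0.00334) and 0.50 ± 0.11 for FTL (adjusted p = 0.00852). Both genes were also higher at 24 h than at 6 h, by 0.90 ± 0.18 for FTH1 (adjusted p = 0.00457) and 0.45 ± 0.11 for FTL (adjusted p = 0.0186). Without the UACC62R 0 h replicate 2 the 24 h changes over 0 h missed the threshold (adjusted p = 0.0549 for FTH1 and 0.123 for FTL), as did FTL without 24 h replicate 1 (0.0947). Neither passed with all 16 libraries (0.159 for FTH1 and 0.168 for FTL). The changes over 6 h missed it without 6 h replicate 2 (0.0535 for FTH1 and 0.209 for FTL), and that of FTL also without 24 h replicate 1 (0.155).

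In UACC62P the ferritin values moved the same way by less. FTH1 had 531 and 722 CPM at 24 h, against 441 and 526 CPM at 0 h, and the lower treated library was only just above the higher untreated one. FTL had 2039 and 2116 CPM at 24 h, against 1704 and 1611 CPM at 0 h. Neither passed (0.38 ± 0.18 for FTH1, adjusted p = 0.277, and 0.33 ± 0.11 for FTL, adjusted p = 0.135), but with replicate number as a block FTL did (0.33 ± 0.07, adjusted p = 0.00512). The difference of response between the lines, UACC62R minus UACC62P, was 0.53 ± 0.25 for FTH1 (adjusted p = 0.461) and 0.18 ± 0.16 for FTL (adjusted p = 0.764), so the lines were not shown to differ.

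The 2 chains did not move in step in UACC62R. The ratio of FTH1 to FTL reads was 0.393 and 0.387 at 24 h, against 0.293 and 0.297 at 0 h, and no other library reached it. Over the UACC62P libraries used, the ratio lay between 0.259 and 0.342 with no separation of 24 h from 0 h. Both genes have processed pseudogenes, and the counts leave out reads with several alignments. Named FTH1 pseudogenes (20 of 25 with a count) summed to 1.56 to 5.24% of the FTH1 reads, and those of FTL (8 of 16) to 1.31 to 2.09%, so the true levels are uncertain. FTH1 exons also overlap BEST1 on the opposite strand over 1267 bases, a gene with 8 to 692 reads per library.

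**Figure D3:**
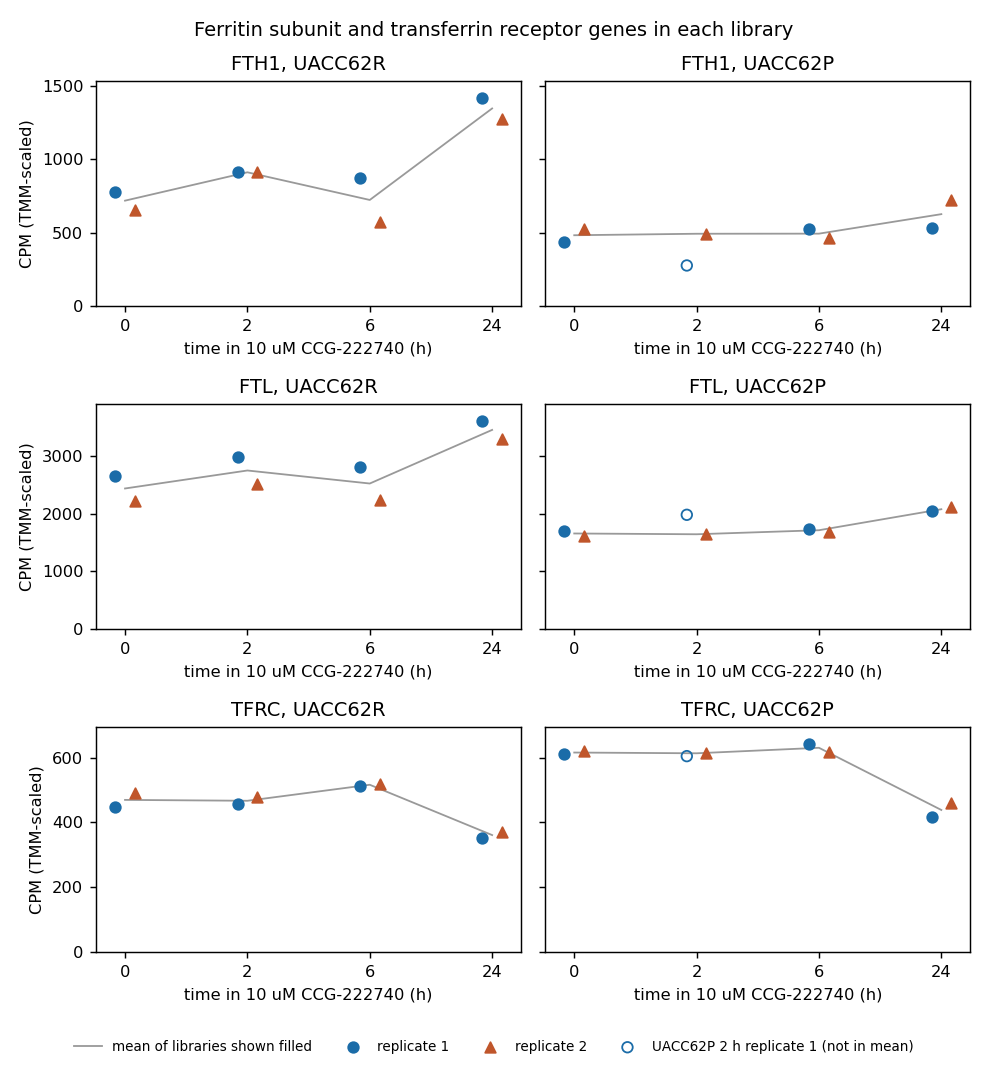
FTH1, FTL and TFRC levels (CPM, linear axes starting at 0) against time in CCG-222740 in UACC62R (left column) and UACC62P (right column), with 1 point per library, a line through the group means and an open circle for the UACC62P 2 h library left out of the tests. FTH1 reaches 1419 and 1273 CPM in UACC62R at 24 h, and TFRC is at its lowest at 24 h in both lines.

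TFRC, which brings transferrin-bound iron into the cell, fell at 24 h in both lines. In UACC62R it had 351 and 371 CPM at 24 h, against 449 and 491 CPM at 0 h, and in UACC62P it had 416 and 461 CPM at 24 h, against 612 and 619.6 CPM at 0 h. In each line both 24 h libraries lay below every earlier library, those of 2 h and 6 h included. The change was −0.38 ± 0.07 on the log2 scale in UACC62R (adjusted p = 0.00302) and −0.49 ± 0.07 in UACC62P (adjusted p = 0.00163), and the difference between the lines was 0.11 ± 0.10 (adjusted p = 0.771). Relative to 6 h, the 24 h change was −0.52 ± 0.07 in UACC62R (adjusted p = 0.00052) and −0.52 ± 0.07 in UACC62P (adjusted p = 0.00512). The UACC62P value missed the threshold without 6 h replicate 1 (0.0503), without 24 h replicate 1 (0.107) and with all 16 libraries (0.357). Of the members' calls at 24 h against 0 h, TFRC's were the ones kept in every fit that left out 1 of the 15 libraries, with adjusted p up to 0.0478 in UACC62R and 0.0345 in UACC62P. With all 16 libraries, adjusted p was 0.0632 in UACC62R and 0.0721 in UACC62P.

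Ferroportin, the iron exporter, and DMT1, which carries ferrous iron across membranes, did not change with the compound by the test. SLC40A1 spanned 1.03 to 1.85 CPM in UACC62R and 6.27 to 7.40 CPM in UACC62P. SLC11A2 spanned 35.7 to 45.4 CPM in UACC62R and 83.8 to 104 CPM in UACC62P. At 24 h SLC11A2 had 45.4 and 45.0 CPM in UACC62R, against 39.1 and 38.7 CPM at 0 h, a change of 0.22 ± 0.09 (adjusted p = 0.146), and 83.8 and 89.5 CPM in UACC62P, against 92.0 and 90.4 CPM at 0 h, a change of −0.07 ± 0.09 (adjusted p = 0.734). The SLC40A1 change at 24 h was 0.33 ± 0.26 in UACC62R (adjusted p = 0.472) and 0.13 ± 0.21 in UACC62P (adjusted p = 0.820).

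Apart from HMOX1, the widest change at 2 or 6 h was that of FTH1 in UACC62R at 2 h, 0.34 ± 0.17 on the log2 scale (adjusted p = 1.0). By count, 0 of the 9 genes passed at 2 h against 0 h in UACC62R, where 0.074% of all genes did, and 0 in UACC62P, where 0.0444% did. At 6 h, 0 of 9 passed in UACC62R, where 0.666% of all genes did. In UACC62P 1 of 9, HMOX1, was past the threshold at 6 h, where 1.52% of all genes were; HMOX1 at this time chose the set, so nothing is read from that count. At 24 h, 4 of 9 passed in UACC62R (BLVRB, FTH1 and FTL higher, TFRC lower), where 14.7% of all genes did (6.48% higher and 8.23% lower), and 1 of 9 in UACC62P (TFRC), where 3.85% did. Between 24 h and 6 h, 3 of 9 passed in UACC62R (FTH1, FTL, TFRC), where 12.6% of all genes did, and 2 of 9 in UACC62P (TFRC and, as part of the rule's own contrast, HMOX1), where 0.735% did. The members' median log2 fold change at 24 h was 0.33 in UACC62R and 0.13 in UACC62P, with medians over all genes of 0.01 and 0.0. With all 16 libraries, 0 of 9 passed in each of these comparisons with 0 h. Over all genes, 0.0%, 0.0258% and 1.78% then passed at 2, 6 and 24 h in UACC62R, and 0.0%, 0.0517% and 0.15% in UACC62P. For 24 h over 6 h, 1 of 9 (TFRC) passed in UACC62R, where 0.816% of all genes did, and 0 in UACC62P, where 0.0% did. The fold changes at 24 h over 0 h in UACC62R were 0.90 ± 0.28 for FTH1, 0.50 ± 0.16 for FTL and 0.39 ± 0.16 for BLVRB, close to those of the 15 libraries with wider errors. With replicate number as a block, 1 of 9 (HMOX1) passed at 6 h in UACC62R, where 2.79% of all genes did, and 2 of 9 (FTL and TFRC) at 24 h in UACC62P, where 12.1% did.

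**Figure D4:**
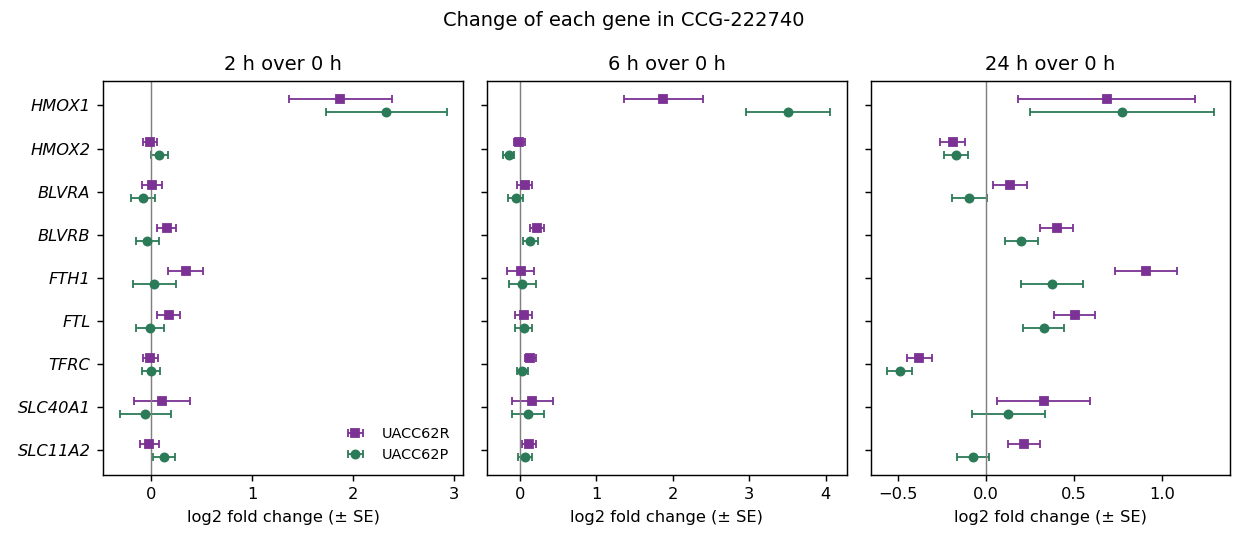
Log2 fold change (± SE from the edgeR fit of 15 libraries) of the 9 genes at 2, 6 and 24 h over 0 h in UACC62R (squares) and UACC62P (circles), with a separate horizontal scale in each panel. HMOX1 is the gene farthest to the right at 2 and 6 h, and at 24 h FTH1 and FTL lie to the right and TFRC to the left of 0.

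Before any compound, the lines differed in 8 of the 9 genes, where 53.9% of all genes differed (27.8% higher and 26.1% lower in UACC62R). Higher in UACC62R were HMOX1 (115 and 102 CPM, against 35.3 and 42.9 CPM in UACC62P), BLVRB, FTH1 and FTL. Lower in UACC62R were HMOX2 (65.2 and 64.8 CPM, against 107 and 104 CPM in UACC62P), TFRC, SLC40A1 (1.38 and 1.03 CPM, against 6.61 and 6.45 CPM) and SLC11A2 (39.1 and 38.7 CPM, against 92.0 and 90.4 CPM). For each of these 8 the 2 lines did not overlap, as was also so for BLVRA (69.8 and 60.7 CPM in UACC62R, against 75.0 and 71.4 CPM in UACC62P). Over all genes, 38.9% lay higher and 36.7% lower in UACC62R without overlap.

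The log2 differences, UACC62R over UACC62P, were 1.47 ± 0.52 for HMOX1 (adjusted p = 0.0281), 0.57 ± 0.18 for FTH1 (adjusted p = 0.0128), 0.56 ± 0.11 for FTL (adjusted p = 0.000823) and 0.30 ± 0.09 for BLVRB (adjusted p = 0.0131). They were −0.70 ± 0.07 for HMOX2 (adjusted p = 9.6e-07), −0.39 ± 0.07 for TFRC (adjusted p = 0.000362), −1.23 ± 0.09 for SLC11A2 (adjusted p = 5.1e-08) and −2.43 ± 0.24 for SLC40A1 (adjusted p = 8.6e-07). The iron exporter thus differed most between the lines, and storage genes and importers differed in opposite directions. With all 16 libraries, HMOX2, FTL, TFRC, SLC40A1 and SLC11A2 remained past the threshold, where 40.5% of all genes were, and HMOX1 (adjusted p = 0.0769), FTH1 (0.116) and BLVRB (0.141) were not. The summed melanocyte, blood and macrophage, fibroblast and endothelial markers given above differed between the same lines. Single blood and macrophage markers, and single fibroblast markers, differed in opposite directions. The part of any of them in these differences was not tested.

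**Figure D5:**
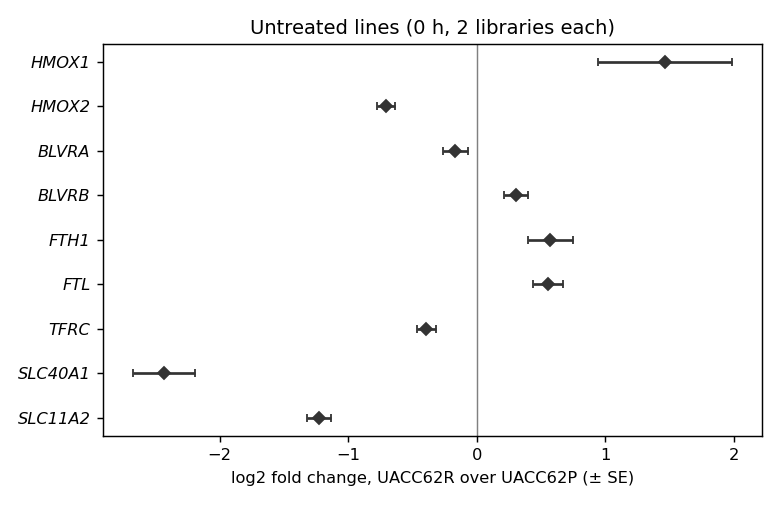
Log2 fold change (± SE, n = 2 libraries per line) of the 9 genes at 0 h, UACC62R over UACC62P. SLC40A1, at −2.43, and SLC11A2, at −1.23, lie farthest to the left and HMOX1, at 1.47, farthest to the right.

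Per kilobase of exon (union of GENCODE v29 exons), the 9 genes were put in order within each line. The union adds up the exons of all transcripts, with 1 coding transcript for FTL, 17 for HMOX2 and 18 for SLC11A2. It is not the length that was expressed, so the order between genes is uncertain. At 0 h FTL was highest, with 2775 CPM per kb in UACC62R and 1888 in UACC62P, followed by FTH1 with 354 and 238, and TFRC with 59.6 and 78.1. In UACC62R HMOX1 (45.0), BLVRB (39.95) and BLVRA (35.8) came next, with ranges of neighbours that overlapped, followed by HMOX2 (17.2). In UACC62P the next were BLVRA (40.2), BLVRB (32.4), HMOX2 (27.9) and HMOX1 (16.3). There the replicates of neighbours did not overlap, which says nothing of the lengths. SLC11A2 (3.84 in UACC62R and 8.99 in UACC62P) and SLC40A1 (0.279 and 1.51) closed the order in both lines. By this measure HMOX1 ranked above HMOX2 in untreated UACC62R and below it in untreated UACC62P.

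The library labelled UACC62P 2 h replicate 1 had 105 CPM of HMOX1, near the 115 and 102 CPM of untreated UACC62R and below the 197 CPM of its partner. Its SLC40A1 (1.09 CPM), HMOX2 (59.6 CPM) and SLC11A2 (43.3 CPM) lay within the UACC62R ranges and far below those of UACC62P. BLVRA, at 78.6 CPM, lay above every other library of either line, but only narrowly above the 75.0 CPM of UACC62P 0 h replicate 1. TFRC, at 605 CPM, lay close to the UACC62P libraries of 0 to 6 h and above every UACC62R library. FTH1, at 278 CPM, lay below every other library of either line, and with FTL at 1981 CPM the ratio of FTH1 to FTL reads was 0.140, against 0.256 to 0.393 elsewhere. For TFRC and FTH1 the library therefore resembled no UACC62R group, whereas for HMOX1 and SLC40A1 untreated UACC62R was the nearest group. With it in the fit, the HMOX1 change at 2 h in UACC62P was 1.95 ± 0.62 in place of 2.33 ± 0.60.

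The rest of the pathway was read from 8 lists with 85 genes, of which 77 were tested. The lists were chosen with earlier results of these data known. Their counts are therefore descriptions, also where they exceed the share of all genes. At 2 h, 0 of the genes of haem synthesis, haem transport, iron uptake and export, iron sensing, iron-sulfur cluster assembly, HMOX1 regulation or NRF2 targets passed in either line. At 6 h in UACC62R 0 of these passed. At 6 h in UACC62P MCOLN1, a lysosomal cation channel that passes iron, rose by 0.34 ± 0.08, MAFG, a small MAF partner of NRF2 and BACH1, by 0.40 ± 0.09, and among NRF2 targets GCLM, for glutathione synthesis, by 0.88 ± 0.18 and SLC7A11, the cystine transporter, by 0.81 ± 0.12 on the log2 scale. None of these 4 passed with all 16 libraries (adjusted p = 0.707 to 1.0). Of the 10 metal and heat stress genes, 4 rose in UACC62R and 3 in UACC62P at 2 h, where 0.074% and 0.0444% of all genes passed in either direction. At 6 h, 6 rose in UACC62R and 7 in UACC62P, where 0.666% and 1.52% of all genes passed, and none fell at either time. At 2 h 0 passed in either line with all 16 libraries, and at 6 h 2 rose in UACC62R and 4 in UACC62P.

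At 24 h in UACC62R, 5 of 14 genes of haem transport and binding rose, among them PGRMC2, a haem chaperone (0.59 ± 0.08), and ABCG2, an exporter that carries porphyrins (0.71 ± 0.14). Iron uptake and export had 3 of 12 higher, among them MCOLN1 (0.67 ± 0.08) and CYBRD1, a ferric reductase (0.75 ± 0.10). Haem synthesis had 1 of 8 higher (PPOX, 0.49 ± 0.12), and iron-sulfur assembly 1 of 10 higher (ISCU, the scaffold, 0.27 ± 0.08). NRF2 targets had 4 of 8 higher, among them GCLC (0.49 ± 0.10) and SLC7A11 (0.56 ± 0.12), the HMOX1 regulators 0 of 10 and iron sensing 0 of 5. The genes of the iron regulatory proteins stood at 0.01 ± 0.07 (ACO1) and −0.05 ± 0.09 (IREB2). These counts stand against 6.48% of all genes higher and 8.23% lower. The medians of these lists ran from −0.10 for iron sensing to 0.53 for NRF2 targets, with 0.01 over all genes.

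At 24 h in UACC62P, the calls were PGRMC1 (0.43 ± 0.09) and PGRMC2 (0.40 ± 0.08) in haem transport, MCOLN1 (0.64 ± 0.08) in iron uptake, and SLC7A11 (1.51 ± 0.12) among NRF2 targets. Haem synthesis, iron sensing, iron-sulfur assembly and the HMOX1 regulators had none. Over all genes, 3.85% passed. Metal and heat stress genes had 4 of 10 higher in each line at 24 h, MT2A, MT1X, MT1G and SLC30A1. With all 16 libraries, 1 gene of the iron and haem lists (CYBRD1) passed at 24 h in UACC62R and 0 in UACC62P. NRF2 targets then had 0 in each line, and the metal and heat stress genes 2 in UACC62R (MT1X and MT1G) and 1 in UACC62P (MT2A).

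Between the untreated lines, 5 of 10 iron-sulfur assembly genes were lower in UACC62R and 1 higher, with GLRX5 at −1.29 ± 0.11. Iron sensing and delivery had 3 of 5 lower and 0 higher: PCBP1 (−0.58 ± 0.08) and PCBP2 (−0.36 ± 0.06), which carry iron to ferritin, and IREB2 (−0.46 ± 0.09). Haem transport had 8 of 14 higher and 2 lower, with ABCG2 at 4.0 ± 0.19 and PGRMC1 at 1.03 ± 0.09. Iron uptake and export had 2 of 12 higher and 4 lower, with HEPH, a ferroxidase that works with ferroportin, at 6.61 ± 0.29. Of the 10 HMOX1 regulators, 5 were higher and 2 lower in UACC62R: BACH1, its repressor, was at −0.82 ± 0.08, NFE2L2 (NRF2) at −0.52 ± 0.09 and MAFG, one of the 5, at 0.75 ± 0.09. Of 8 NRF2 targets, 5 were higher and 0 lower. These shares stand against 53.9% of all genes past the threshold in that comparison.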

How the data were processed

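The 16 libraries were stranded, made from poly(A) RNA and read from one end for 50 bases, per the labels' protocols. The submitters' processing notes name HISAT2 2.1.0, HTSeq 0.6.1, Trimmomatic 0.33, FastQC 0.11.5 and bcl2fastq 2.19.0, with the build hg19. The authors deposited raw read counts per gene. Lines that name no gene stayed out: outside any gene lay 3.31 to 4.66% of uniquely aligned reads, and 5.99 to 6.81% were ambiguous between genes. Of all reads, 18.6 to 22.0% had several alignments and 6.12 to 17.8% had none. Symbols came from a table that held 52181 of the IDs, and exon lengths and transcripts from GENCODE v29 (another build, so no coordinate is given).

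Counts of 15 libraries were TMM-scaled, filtered by filterByExpr (20280 genes) and tested in 1 edgeR quasi-likelihood fit with a coefficient per group (edgeR 4.0.16, limma 3.58.1, R 4.3.3; 7 residual degrees of freedom) over 12 comparisons, with Benjamini-Hochberg adjustment over all genes and a threshold of 0.05. The fit gives UACC62P at 2 h, with 1 library, the spread of the other groups. SE is the absolute log2 fold change over the square root of F. The fit was tested on simulated counts. Other fits used all 16 libraries (19352 genes), a replicate block, RLE factors, library size alone, no filter, DESeq2 1.42.0, and each library left out. Likeness to HMOX1 used log2(CPM + 0.5). Same-numbered libraries deviated together in each of 21 pairs of groups (correlation of deviations 0.179 to 0.718 over 8360 genes). The numbers were therefore taken to pair libraries in the ratios given replicate by replicate and in the fit with the block. The main fit holds no term for replicate number, so its p-values leave this pairing out. The pairing rests on the data, since no label says so, and the untreated libraries are titled in another form than the treated ones.

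The 9 genes and all lists were chosen with earlier results of these data known. All 9 genes are named; from each list, up to 2 called genes each way by smallest p where the mean log2 CPM was 0 or more, and 6 genes each for likeness to HMOX1 and for the gap at 6 h, pseudogenes and unnamed loci passed over. Some genes that the rule takes are not reported here. The list rule was also applied to the lines at 0 h. ACO1, IREB2, MT1G and SLC30A1 were named after their values were seen.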

Additional observations from a re-analysis of the deposited data

Results flagged for a closer look

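Of the haem and iron genes, BLVRA and SLC11A2 lay on opposite sides of their untreated libraries in the lines at 24 h: both 24 h libraries above both untreated ones in UACC62R and below both in UACC62P. Of the 20280 genes tested, 4.93% lay on opposite sides in this way, 2.52% in the same direction as these. None of the 24 h changes passed (adjusted p = 0.406 in UACC62R and 0.679 in UACC62P for BLVRA, and 0.146 and 0.734 for SLC11A2). The difference of response, UACC62R minus UACC62P, was 0.23 ± 0.14 on the log2 scale for BLVRA (edgeR adjusted p = 0.588) and 0.29 ± 0.13 for SLC11A2 (adjusted p = 0.439), so neither passed the test.

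Among the listed genes around them, MT2A, a metallothionein, had a smaller log2 fold change in UACC62R than in UACC62P. The difference of response was −1.63 ± 0.14 at 6 h (adjusted p = 0.000286) and −1.30 ± 0.14 at 24 h (adjusted p = 0.00239). MT2A had 2631 and 2677 CPM at 6 h and 954 and 942 CPM at 0 h in UACC62R, against 895 and 1098 CPM at 6 h and 124 and 106 CPM at 0 h in UACC62P. UACC62R thus started from the higher level, and in CPM its rise at 6 h was the larger. SLC7A11 responded less in UACC62R at 24 h, by −0.95 ± 0.17 (adjusted p = 0.0212), with 240.4 and 201 CPM at 24 h and 151 and 148 CPM at 0 h in UACC62R, against 192 and 204 CPM at 24 h and 75.4 and 63.7 CPM at 0 h in UACC62P. With all 16 libraries no gene passed for a difference of response at 6 or 24 h, with adjusted p = 1.0 for MT2A at both times and for SLC7A11 at 24 h.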

How the results depend on the processing

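Of the 9 genes' fold changes under the other fits, 2183 of 2250 stood on the same side of the threshold as in the main fit. Another 38 lost their call, 29 gained one and none that was called reversed. Most of the 2183 were called in neither fit, so they had no call to lose. Fits that left out 1 library gave 1602 of the 2250. With all 16 libraries 13 calls were lost and 0 gained. RLE factors, library size alone and DESeq2 changed no call of the 9 genes. With all 16 libraries the number of the 9 genes called was 0 for UACC62R at 24 h, 0 for UACC62P at 6 h, 0 at 24 h and 0 for 24 h over 6 h, 1 for UACC62R 24 h over 6 h, and 5 between the lines. The replicate block gave 1 for UACC62R at 6 h and 2 for UACC62P at 24 h, adding HMOX1 and FTL; it also added HMOX2 in UACC62R at 24 h over 0 h and over 6 h, and FTL in UACC62P at 24 h over 6 h, and changed no other call of the 9 genes. With no filter 35573 genes were tested. In UACC62R the counts of the 9 genes were then 2 at 2 h, where 80 of all genes passed higher and 43 lower. At 6 h in UACC62R 1 passed (272 and 179 over all genes). In UACC62P 4 passed at 24 h (781 and 737) and 4 for 24 h over 6 h (293 and 429). For the difference of response 1 passed at 6 h (54 and 44) and 1 at 24 h (264 and 310). The cause was not tested. Leaving out each library in turn, the counts ranged from 0 to 1 for UACC62R at 2 h and at 6 h, 1 to 5 at 24 h, 1 to 4 at 24 h over 6 h, 0 to 1 for UACC62P at 2 h and at 6 h, 1 to 1 at 24 h, 0 to 2 at 24 h over 6 h, 5 to 8 between the lines, and 0 to 1 for the difference of response at 6 h, with 0 to 0 at 2 h and 24 h.

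Single libraries decided several calls. Those of BLVRB, FTH1, FTL and TFRC are given beside their values. Between the lines, HMOX1 missed the threshold when any 1 of the 4 libraries compared was left out (adjusted p = 0.0566 to 0.133), and BLVRB and FTH1 without replicate 1 of either line. HMOX1 in treated UACC62P cells enters the counts above as a description.

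Over all genes, calls at 24 h in UACC62R numbered 1315 higher and 1669 lower, against 171 and 173 with all 16 libraries and 2230 and 2668 with the block. In UACC62P at 24 h they numbered 445 and 335, against 20 and 9 with all 16 libraries, 1224 and 1224 with the block, 781 and 737 with no filter and 634 and 655 by DESeq2. Library size alone shifted the median between the lines to 0.10. With 2 libraries a group, a change that missed the threshold is not shown to be absent.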
